A study of Caenorhabditis elegans with 2 samples.

Results

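The 8 genes described here encode the DREAM complex of Caenorhabditis elegans. They are efl-1, dpl-1 and lin-35, and the 5 MuvB core genes lin-9, lin-37, lin-52, lin-53 and lin-54. They were taken by name from the WBcel235 annotation and are 8 of its 19985 protein-coding genes. For each, every peak was collected whose summit, the peak's point of highest signal, lay within 1000 bp of the annotated 5′ end of the gene or inside the gene body. The data were chromatin immunoprecipitation followed by sequencing (ChIP-seq) of eGFP-tagged ZTF-11, a Myt1-type zinc finger protein that regulates transcription, in whole larvae at the third larval stage (L3). The worms were of strain OP236, with the genotype unc-119(ed3) III; wgIs236, in which an insertion targets ztf-11; males and females were pooled. There was 1 group with 2 biological replicates, all carrying the same mutation and transgene, and no untagged or wild-type sample was analysed here. Under antibody the labels give ztf-11, without saying whether the tag or the protein was recognised. Signal from whole larvae mixes all cell types, so a peak in a few cells and a weak peak in many cannot be told apart.

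In DREAM, a heterodimer of an E2F-type factor, EFL-1, and its partner DPL-1 binds E2F sites in promoters, and the Rb-family pocket protein LIN-35 joins it to the MuvB core. LIN-54 is the MuvB subunit that reads a second promoter element, the cell cycle homology region (CHR), while LIN-53 is a histone-binding WD-repeat protein also found in other chromatin complexes. In C. elegans these genes belong largely to the synMuv B class, known from vulval development, and the complex is known for keeping cell cycle and germline genes low in somatic cells.

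Peaks were found near most of these genes in the long replicate 1 list, but near few of them in the shorter lists. In replicate 1, 7 of the 8 genes had a peak, all but lin-53, where 67.2% of all protein-coding genes had one. In replicate 2 only lin-54 had a peak, against 8.16% of all protein-coding genes. In the list from the pooled replicates lin-52 and lin-54 had peaks, against 2.69% of all protein-coding genes. In the authors' thresholded list none of the 8 had one, against 0.335% of all. With 8 genes, 1 gene is 12.5% of the set, so the replicate 1 and replicate 2 counts lay close to the background shares. The lin-54 locus was the only one of the 8 where a replicate 1 and a replicate 2 peak that both met the rule overlapped, by 1 bp or more, against 2.86% of all protein-coding genes. The strongest peaks lay upstream of lin-54, lin-52 and lin-37, each inside the body of a neighbouring gene.

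Parts of the sequence under these peaks are shown because they were the strongest at the 8 genes. The region near lin-9 is shown because its peaks lay just outside the distance used. All are RefSeq sequence of the WBcel235 assembly, the same build as ce11, written 5′ to 3′ in the direction of the named member of the complex. Windows were cut to at most 300 bases and to exclude annotated untranslated sequence. Capitals mark every match, on either strand, to the Myt1-family core AAGTTT, to the E2F words TTTCCCGC, TTTCGCGC, TTTGCCGC and TTTGGCGC, or to the CHR words TTTGAA and TTCGAA. The lin-54 windows are the strongest replicate 1 peak at chrIV:13240215-13240514 and the stretch of the replicate 2 peak between the genes at chrIV:13240652-13240776, both on the plus strand. The lin-52 window at chrIII:9825183-9825334, the lin-37 window at chrIII:7073155-7073454 and the lin-9 window at chrIII:8905208-8905507 are on the minus strand. The replicate 2 summit at lin-54, chrIV:13240626 in the untranslated part of rpl-12, lay outside its window. The pooled summit at lin-52, chrIII:9825184, lay at the edge of its window.
lin-54, strongest replicate 1 peak: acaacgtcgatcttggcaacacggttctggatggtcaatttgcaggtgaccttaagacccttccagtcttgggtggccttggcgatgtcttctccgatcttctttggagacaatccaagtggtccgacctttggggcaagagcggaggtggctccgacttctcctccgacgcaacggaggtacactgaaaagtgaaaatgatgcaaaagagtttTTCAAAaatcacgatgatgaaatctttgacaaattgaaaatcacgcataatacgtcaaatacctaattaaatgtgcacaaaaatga
lin-54, replicate 2 peak: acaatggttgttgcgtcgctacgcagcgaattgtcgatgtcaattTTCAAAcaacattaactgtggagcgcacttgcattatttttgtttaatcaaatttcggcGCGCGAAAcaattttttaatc
lin-52, pooled peak: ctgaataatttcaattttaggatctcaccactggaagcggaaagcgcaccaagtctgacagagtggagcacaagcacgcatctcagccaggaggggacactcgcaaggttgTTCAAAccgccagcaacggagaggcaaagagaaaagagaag
lin-37, strongest replicate 1 peak: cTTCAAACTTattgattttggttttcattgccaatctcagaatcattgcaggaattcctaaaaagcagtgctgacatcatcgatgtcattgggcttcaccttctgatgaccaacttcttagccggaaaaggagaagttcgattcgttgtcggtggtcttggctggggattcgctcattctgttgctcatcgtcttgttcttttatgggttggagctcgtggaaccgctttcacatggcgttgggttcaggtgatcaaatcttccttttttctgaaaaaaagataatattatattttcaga
lin-9, nearest pooled peak: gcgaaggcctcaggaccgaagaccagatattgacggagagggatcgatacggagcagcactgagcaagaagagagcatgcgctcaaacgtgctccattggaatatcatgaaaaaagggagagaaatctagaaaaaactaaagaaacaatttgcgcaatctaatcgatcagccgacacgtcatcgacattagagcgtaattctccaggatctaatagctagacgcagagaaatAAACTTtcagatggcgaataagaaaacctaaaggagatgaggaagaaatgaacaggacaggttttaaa
The windows had a GC content of 44.7%, 38.4%, 50.7%, 41.3% and 43.0% in that order. The lin-54 and lin-52 windows held 1 CHR match each, written TTCAAA on the strand shown. The replicate 2 window of lin-54 was the only one of the 5 with an E2F match, GCGCGAAA, which lay more than 100 bp from the summit. In the lin-37 window a CHR and a Myt1-family match overlapped in TTCAAACTT, also more than 100 bp from the summit, and in the lin-9 window AAACTT was a Myt1-family match.

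The lists behind these counts differed greatly in length, and depth could not be read from them. The replicate 1 list held 30000 peaks with signal scores from 6.32 to 74.2 and a median of 8.84. Whether this number is a cap set when the list was made is not given in the sources read here. The replicate 2 list held 2036 peaks with scores from 14.7 to 614, the pooled list 631 with scores from 26.4 to 891, and the thresholded list 96 with scores from 41.0 to 891. The signal score comes from the authors' peak calling, on a scale the labels do not state, and was used only to rank peaks within a list, with rank 1 the strongest. Since the files hold peaks without read numbers, sequencing depth is unknown and no interval could be given for a score. A gene without a listed peak had no peak called, which does not show that ZTF-11 was absent. A listed peak does not by itself show binding either, since the replicate lists are relaxed and the pooled list is labelled as peaks and background. The median −log10 q-value was 0.337 in replicate 1, 0.0574 in replicate 2 and 0.183 in the pooled list, against 1.30 in the thresholded list. Smaller −log10 q-values stand for weaker support. At ztf-11 itself, the gene of the tagged protein, the best peaks had rank 23 in replicate 1, rank 60 in replicate 2 and rank 573 in the pooled list, and the thresholded list had none. Whether the transgene wgIs236 added signal at this place was not tested.

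**Figure D1:**
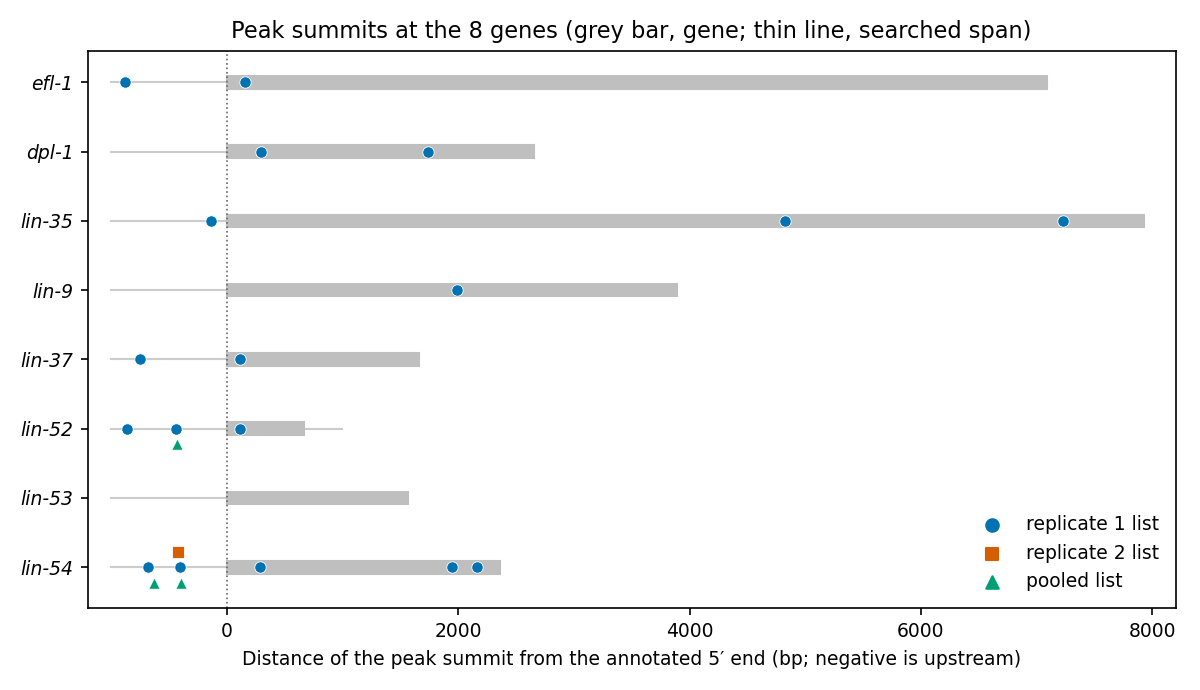
Position of every peak summit that met the distance rule, in bp from the annotated 5′ end of each gene in its own direction; circles, squares and triangles stand for the replicate 1, replicate 2 and pooled lists, grey bars for gene bodies and thin lines for the searched span. Replicate 1 summits sit at 7 genes, the replicate 2 square at lin-54 alone and the pooled triangles upstream of lin-52 and lin-54.

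The E2F and DP subunits had only weak replicate 1 peaks. The gene efl-1 (WBGene00001161, chrV:16958590-16965675, minus strand), which encodes an E2F-type DNA-binding subunit, had 2 replicate 1 peaks. The stronger one, at chrV:16966391-16966710, had rank 12209, a score of 9.53 and a −log10 q-value of 0.402. Its summit lay outside any gene, 876 bp upstream of efl-1 and 263 bp from the 5′ end of fbxa-90. The other, at chrV:16965353-16965672, had rank 21859 and a score of 7.52 and lay in an intron of efl-1, 162 bp downstream of the 5′ end. No peak of the other lists lay close to efl-1: the nearest summits were 92873 bp away in replicate 2 and 92830 bp away in the pooled list.

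The gene dpl-1 (WBGene00001061, chrII:9169910-9172565, plus strand), which encodes the DP partner of EFL-1, also had 2 replicate 1 peaks. They lay at chrII:9170048-9170367, with rank 12037, a score of 9.58 and a −log10 q-value of 0.407, and at chrII:9171490-9171809, with rank 14635, a score of 8.93 and a −log10 q-value of 0.345. Both summits, 298 and 1740 bp downstream of the 5′ end, lay in coding exons of dpl-1 that are also within an intron of the annotated gene T23G7.2. The nearest replicate 2 and pooled summits were 12063 and 12062 bp upstream, next to oac-54. The thresholded peak closest to any of the 8 genes was 113080 bp from dpl-1.

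The pocket protein gene lin-35 (WBGene00003020, chrI:5807709-5815637, plus strand), the single Rb-family gene of C. elegans, had 3 replicate 1 peaks. The strongest, at chrI:5807409-5807728, had rank 13360, a score of 9.24 and a −log10 q-value of 0.375, and its summit lay 140 bp upstream of the 5′ end and in no other gene. It was the only one of the 18 replicate 1 peaks at the 8 genes whose summit lay upstream, in no gene, with the member's own 5′ end as the nearest of any protein-coding gene. The other peaks had ranks 18119 and 18446 and lay in coding exons, 7225 and 4829 bp downstream of the 5′ end. The nearest replicate 2 summit was 8534 bp downstream of the 5′ end, past the 3′ end of lin-35, with rank 1868 and a score of 14.9.

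Of the MuvB core genes with a peak, lin-9 had the weakest evidence inside the distance rule and a stronger peak just outside it. The gene lin-9 (WBGene00002998, chrIII:8900237-8904131, minus strand) encodes a core subunit conserved in animals. Its 1 replicate 1 peak, at chrIII:8901979-8902298, had rank 26785, a score of 6.75 and a −log10 q-value of 0.155, and lay in a coding exon 1992 bp downstream of the 5′ end. A replicate 1 peak with rank 352, a score of 20.0 and a −log10 q-value of 1.62 had its summit 1224 bp upstream of lin-9, and a pooled peak with rank 172 and a score of 34.6 had its summit 1226 bp upstream. Both were closer to unc-32, a subunit gene of the vacuolar proton pump, at 260 and 258 bp from its 5′ end. They were not counted for lin-9, and the nearest replicate 2 summit was 12763 bp away.

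The gene lin-37 (WBGene00003022, chrIII:7070890-7072552, minus strand), another core subunit, had 2 replicate 1 peaks. The stronger, at chrIII:7073144-7073463, had rank 2425, a score of 14.4 and a −log10 q-value of 1.09. Its summit lay 752 bp upstream of lin-37, in a coding exon of ZK418.5, a gene on the same strand that ends 60 bp before lin-37 and whose own 5′ end was nearer, at 547 bp. The weaker peak, at chrIII:7072278-7072597, had rank 14432 and a score of 8.97 and lay in a coding exon of lin-37, 114 bp downstream of the 5′ end. In the other lists the nearest summits were 26128 bp away in replicate 2 and 129554 bp away in the pooled list.

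The gene lin-52 (WBGene00003035, chrIII:9824083-9824750, minus strand), the shortest of the 8 and in other animals the subunit that contacts the pocket protein, had 3 replicate 1 peaks and 1 pooled peak. The strongest replicate 1 peak, at chrIII:9825025-9825344, had rank 424, a score of 19.5 and a −log10 q-value of 1.57. The pooled peak overlapped it by 319 bp and had rank 167 of 631, a score of 35.1 and a −log10 q-value of 0.583. Their summits lay 435 and 434 bp upstream of lin-52, in a coding exon of ZK632.9, whose 5′ end was nearer, at 247 and 248 bp. ZK632.9 lies on the same strand and ends 126 bp before lin-52. The weaker replicate 1 peaks had ranks 18723 and 21018 and summits 862 bp upstream and 114 bp downstream of the 5′ end. Replicate 2 had no peak within the distance used; its nearest summit, with rank 473 and a score of 18.5, lay 1631 bp downstream, next to the 5′ end of arl-5.

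The gene lin-53 (WBGene00003036, chrI:9618196-9619760, minus strand), which encodes the histone-binding subunit, had no peak in any list. Its nearest replicate 1 summit lay 4702 bp upstream, close to rps-19, with rank 28748 and a score of 6.48. A distance this large or larger was found for 7.52% of protein-coding 5′ ends. Its related neighbour rba-1, 88 bp away and also coding for an RBBP4-type histone-binding protein, had no replicate 1 peak either. The nearest replicate 2 and pooled summits were 7989 and 13944 bp from lin-53.

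The gene lin-54 (WBGene00003037, chrIV:13241044-13243401, plus strand) encodes the DNA-binding subunit of MuvB. It had the strongest single replicate 1 peak of the 8 genes and was the only one with a replicate 2 peak. The strongest replicate 1 peak, at chrIV:13240204-13240523, had rank 61 of 30000, a score of 27.2 and a −log10 q-value of 2.16. The replicate 2 peak, at chrIV:13240446-13240805, had rank 176 of 2036, a score of 21.6 and a −log10 q-value of 0.384. The pooled list had 2 peaks here, with rank 292, a score of 30.3 and a −log10 q-value of 0.189, and with rank 378, a score of 29.0 and a −log10 q-value of 0.143. All lay upstream of lin-54, over or next to rpl-12, a gene for a protein of the large ribosomal subunit that is transcribed away from lin-54.

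The replicate peaks at lin-54 did not have their strongest points in the same place. The summit of the strongest replicate 1 peak lay 680 bp upstream of lin-54, in a coding exon of rpl-12, and that of the replicate 2 peak lay closer to lin-54, in the untranslated part of rpl-12. They were 262 bp apart, and the peaks overlapped by 78 bp. A much weaker replicate 1 peak, at chrIV:13240476-13240795 with rank 16898 and a score of 8.42, had its summit 10 bp from that of replicate 2 and overlapped it by 320 bp. The pooled summits, 233 bp apart, fell near both positions: one lay 52 bp from the strongest replicate 1 summit and the other 23 bp from the replicate 2 summit.

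The 5′ ends of rpl-12 and lin-54 are 393 bp apart, and every one of these upstream summits was nearer to that of rpl-12. The strongest replicate 1 summit was 287 bp from it, the replicate 2 summit 25 bp, and the nearer pooled summit 2 bp. From distance, the peaks cannot be assigned to lin-54 rather than to rpl-12. Within lin-54 itself, replicate 1 had 3 peaks, with ranks 19756, 21877 and 27049 and scores of 7.90, 7.51 and 6.71, and no other list had any.

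**Figure D2:**
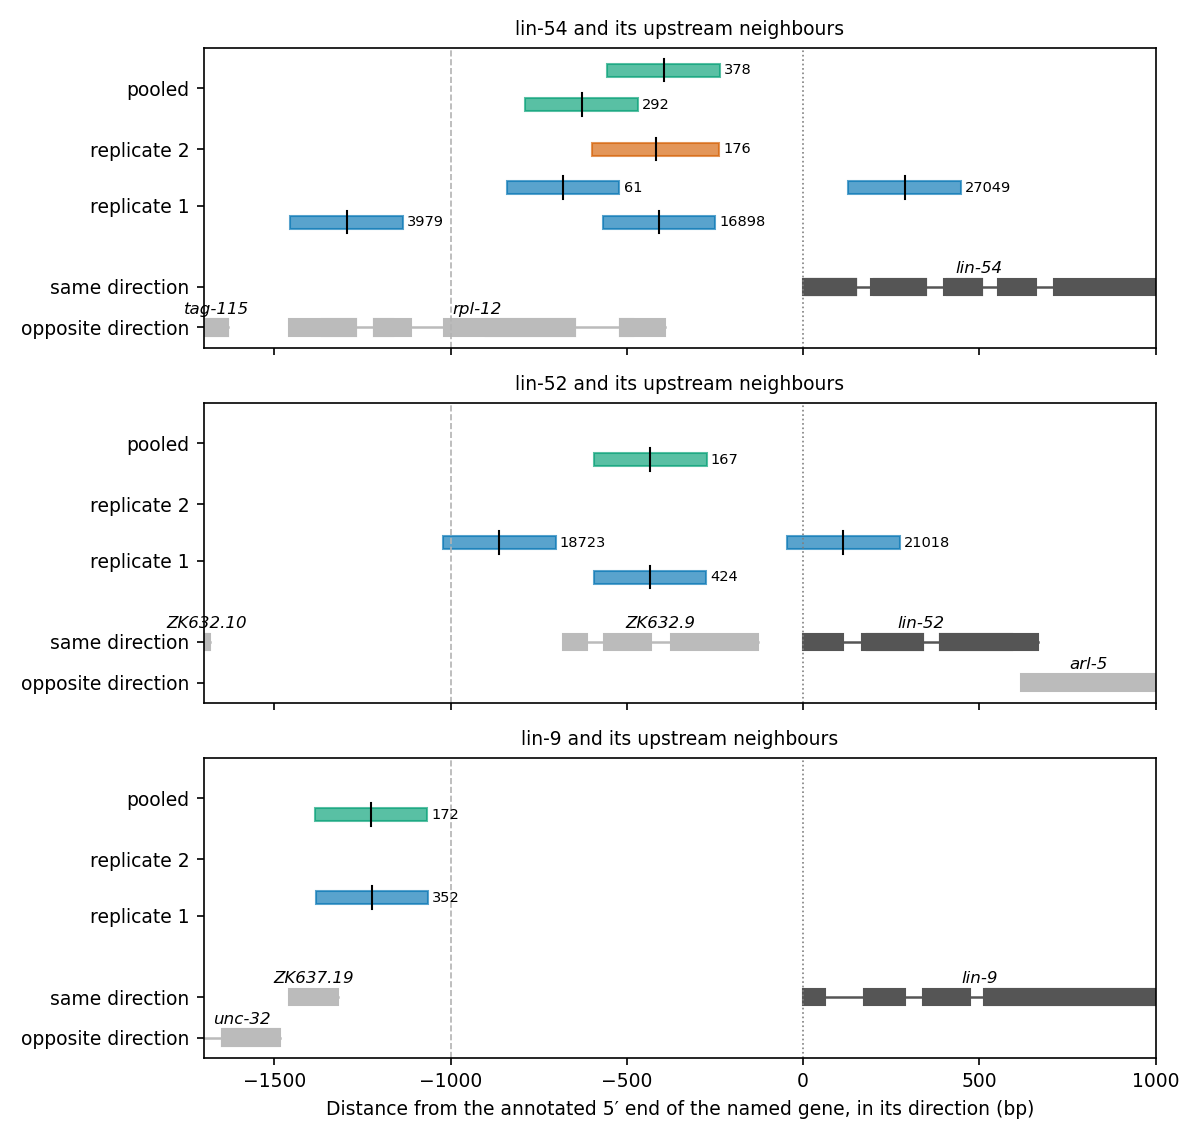
Peaks around the 5′ ends of lin-54, lin-52 and lin-9, in bp from the annotated 5′ end in the direction of each gene; bars are peaks with a tick at the summit and their rank in the list beside them, blocks below are exons of genes in the same and the opposite direction, and the dashed line marks the 1000 bp limit. The lin-54 peaks with ranks 61 and 176 lie over rpl-12, the lin-52 peaks with ranks 424 and 167 over ZK632.9, and the lin-9 peaks with ranks 352 and 172 beyond the limit.

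Together the 7 genes with a replicate 1 peak had 18 such peaks, and these were mostly of middling or low rank. Their ranks ran from 61 to 27049 with a median of 17508, and their median score was 8.30 beside 8.84 for the whole list. Of the 18 peaks, 8 scored above the list median and 2, at lin-52 and lin-54, were among the 2036 strongest, as many as replicate 2 holds. At that length 2 of the 8 genes had a replicate 1 peak, against 8.43% of all protein-coding genes. When the 13438 genes with a replicate 1 peak were ordered by their best one, lin-54 came at position 48, lin-52 at 366 and lin-37 at 1993. The others came at 7644 for dpl-1, 7716 for efl-1, 8273 for lin-35 and 12678 for lin-9. The 5 MuvB genes were thus spread over the order, with 3 in its upper part, lin-9 close to its end and lin-53 without a peak, and the E2F, DP and pocket protein genes stood past its middle. The 3 high positions rest on peaks nearer to the 5′ ends of rpl-12, ZK632.9 and ZK418.5.

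**Figure D3:**
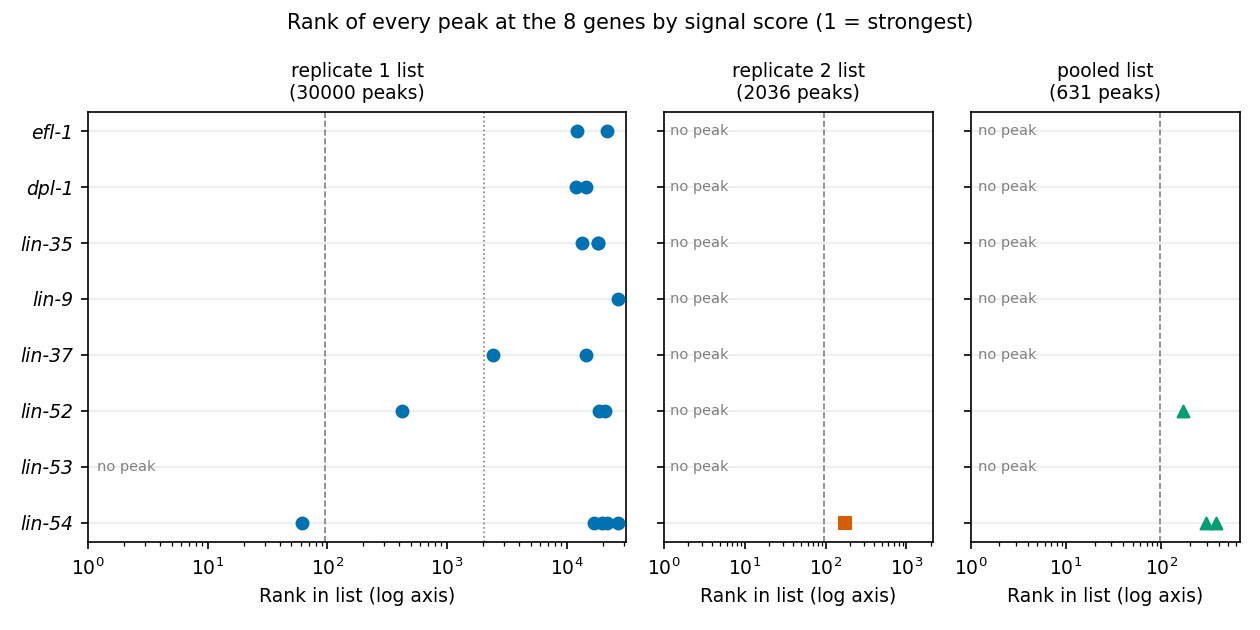
Rank by signal score of every peak at the 8 genes in the replicate 1, replicate 2 and pooled lists, on log axes where 1 is the strongest; the dashed lines mark rank 96, the length of the thresholded list, and the dotted line rank 2036, the length of the replicate 2 list. Only lin-54, at rank 61, lies left of the dashed line in replicate 1, and no peak does in replicate 2 or in the pooled list.

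By position, 12 of the 18 replicate 1 peaks had summits within 1000 bp of the 5′ end of the gene and 6 lay further into the gene body. Upstream summits numbered 7, of which 4 fell in the body of another gene. The 11 summits inside the genes lay 8 times in a coding exon, 2 times in an intron and 1 time in an untranslated region. For 7 of the 18, the member's own 5′ end was the nearest of any protein-coding gene. The matching shares over all replicate 1 peaks are not given here, so whether these positions are usual cannot be told. When only the window of 1000 bp around the 5′ end was searched, 6 of the 8 genes had a replicate 1 peak, without lin-9, against 48.9% of all protein-coding genes. In that window lin-54 remained the single gene in replicate 2 (4.86% of all), lin-52 and lin-54 remained in the pooled list (1.64% of all), and the thresholded list had none (0.260% of all).

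Under the distance rule a longer gene body is a larger searched span, and whether length accounts for the counts was not tested. The 8 genes had a median length of 2507 bp beside 2026 bp for all protein-coding genes, and genes with a replicate 1 peak had a median of 2423 bp beside 1487 bp for those without. Per 10 kb searched, the 8 genes had 4.98 replicate 1 peaks against 3.29 for all protein-coding genes, 0.277 against 0.214 in replicate 2, and 0.830 against 0.0697 in the pooled list. The pooled value rests on 3 peaks, at lin-52 and lin-54. The median distance from the 5′ end to the nearest replicate 1 summit was 225 bp for the 8 genes and 1033 bp for all. In replicate 2 the medians were 10298 and 18339 bp and in the pooled list 13003 and 62264 bp, whereas in the thresholded list the 8 genes were further away, at 952959 against 661936 bp.

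The words of the known binding elements were counted within 100 bp of the summits. CHR words were present at 10 of the 18 replicate 1 summits of the 8 genes (55.6%), beside 40.6% of all replicate 1 summits. The Myt1-family core was present at 3 (16.7%), 1 each at dpl-1, lin-35 and lin-37, beside 23.1% of all. At lin-37 this was the weaker peak, of rank 14432. E2F words were present at 2 (11.1%), the weak peaks of rank 26785 in lin-9 and rank 18723 upstream of lin-52, beside 3.01% of all. No Myt1-family core lay within 100 bp of any replicate 1, replicate 2 or pooled summit at lin-52 or lin-54, which had the strongest peaks. These are matches of letters only.

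The promoters of the 8 genes, taken as 250 bp before to 50 bp after the annotated 5′ end, were searched for the same words. At lin-37 and lin-52 this stretch reached into ZK418.5 and ZK632.9, which end 60 and 126 bp before them. An E2F word was present in 3 of the 8, those of efl-1, lin-9 and lin-53, where 4.70% of all protein-coding promoters had one. A CHR word was present in 6, all but those of lin-35 and lin-52, where 69.0% of all promoters had one. The Myt1-family core was present in 3, those of efl-1, lin-35 and lin-9, where 41.7% had one. Of the 3 promoters with an E2F word, that of efl-1 was near a replicate 1 peak of rank 21859. The nearest replicate 1 summit to the 5′ end of lin-9 was that of rank 352, 1224 bp upstream, and the nearest to that of lin-53 was 4702 bp away.

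Since lin-54 was the member with the best ranks in both replicates, the genes most like it were sought among the 1382 protein-coding genes with a peak in both replicate lists. Likeness was the sum over the 2 replicates of the absolute difference in log2 rank of the best peak. The nearest was rpl-12 at 0, because it holds the same peaks. Next came frm-7, which encodes a FERM-domain protein, at 0.179 with ranks 60 and 196, and let-526, a subunit gene of a SWI/SNF chromatin remodelling complex, at 1.06 with ranks 126 and 178. Their best pooled ranks were 56 and 98, better than the 292 of lin-54.

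The wider pathway was described by 49 genes in 6 lists. Of these, 43 (87.8%) had a replicate 1 peak, 4 (8.16%) a replicate 2 peak, 5 (10.2%) a pooled peak and 1 (2.04%) a thresholded peak, beside the 67.2%, 8.16%, 2.69% and 0.335% of all protein-coding genes. The thresholded peak was in egl-27, an MTA-type subunit gene of the nucleosome remodelling and deacetylase complex NuRD, in an intron 3463 bp downstream of the 5′ end. It had rank 86 and a score of 42.4. The same place had rank 101 in replicate 1 and rank 415 in replicate 2, with peaks that overlapped by 320 bp. In the list of 8 genes for NuRD and the related MEC complex, egl-27 was the single gene with a replicate 2 or pooled peak, and 7 had a replicate 1 peak, beside 67.2% of all protein-coding genes.

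In the list of 8 genes upstream of or beside Rb, 6 had a replicate 1 peak, all but efl-2 and cdk-4, beside 67.2% of all protein-coding genes. In that list 1 gene had a replicate 2 peak, beside 8.16% of all, and 2 had a pooled peak, beside 2.69% of all. The gene fzr-1, an activator of the anaphase-promoting complex, had a replicate 2 peak of rank 71 with a score of 27.1 in its untranslated region, 3881 bp from the 5′ end, and a pooled peak of rank 181. The replicate 1 peak it overlapped, by 243 bp, had rank 15487. The gene cki-2, which encodes an inhibitor of cyclin-dependent kinases, had a pooled peak of rank 342 and a replicate 1 peak of rank 161, both in an intron with the summit 1162 bp downstream of the 5′ end. Replicate 2 had no peak by the rule there.

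The counts of the remaining lists are to be read beside the same shares of all protein-coding genes, 67.2% in replicate 1, 8.16% in replicate 2 and 2.69% in the pooled list, at which most genes of any short list have a replicate 1 peak. Of 8 other synMuv B genes, 7 had a replicate 1 peak, all but hpl-2. The zinc finger gene lin-13 had a pooled peak of rank 412 and a replicate 1 peak of rank 319, and lin-15B had the single replicate 2 peak of this list, of rank 1339, with its summit 777 bp upstream. All 4 synMuv A genes had a replicate 1 peak and none had a peak in another list; the best was at lin-15A, with rank 2964 and a score of 13.8. Among 16 cell cycle genes of the kind DREAM is known to bind, 14 had a replicate 1 peak, all but cdk-1 and cyb-1, and none had a pooled peak. The best of these was in mcm-4, a subunit gene of the replicative helicase, with rank 1103 and a score of 16.7. The gene pcn-1, for the sliding clamp PCNA, had the single replicate 2 peak, of rank 188 with a score of 21.4 and the summit 244 bp upstream. All 5 germline genes had a replicate 1 peak, and pgl-1, for a P granule component, had a pooled peak of rank 582.

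**Figure D4:**
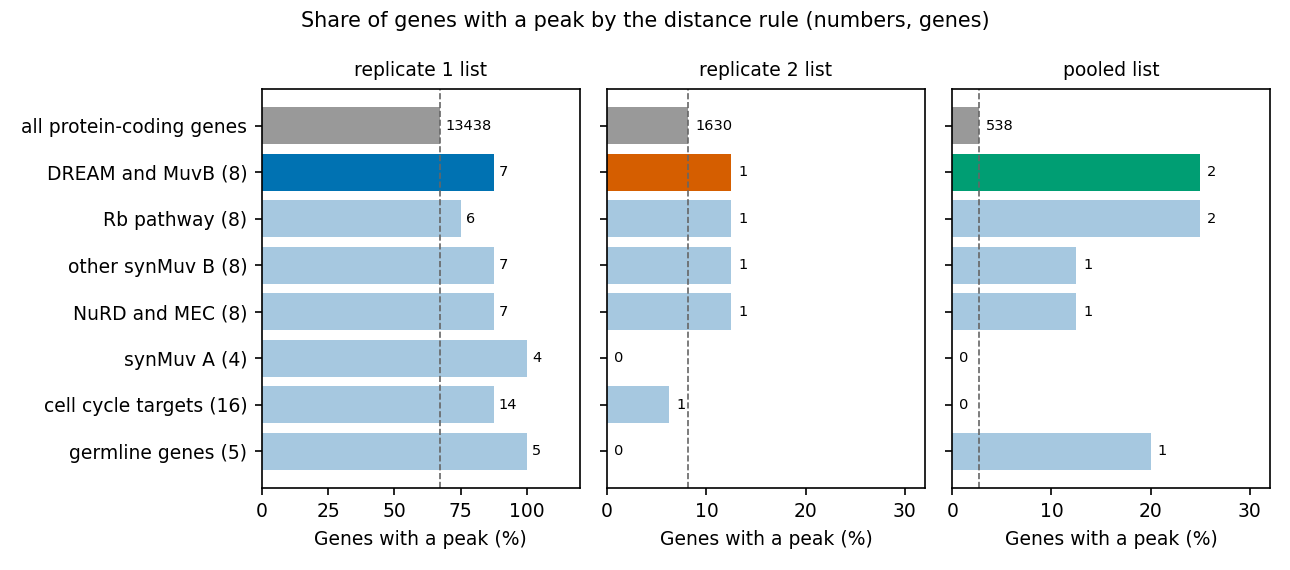
Share of genes (%) with a peak by the distance rule in the replicate 1, replicate 2 and pooled lists, for all protein-coding genes (grey), the 8 DREAM and MuvB genes (dark colour) and the 6 pathway lists (pale); the number beside each bar counts genes and the dashed line is the share of all protein-coding genes. The 8 genes stand at 7, 1 and 2 genes, and 1 gene more or fewer moves the bar of a list of 8 by 12.5%.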

How the data were processed

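ChIP-seq of eGFP-ZTF-11 in L3 larvae was deposited as peak lists. Text records deposited with the labels describe a relaxed list from each replicate with a control, another from both replicates pooled, and a list thresholded by the irreproducible discovery rate. Neither the aligner, the peak caller nor the threshold is given in the sources read here. For every peak the authors deposited a signal score, a −log10 q-value and the offset of the summit. The 4 lists on ce11 were used; the 4 on ce10 were not used here.

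Genes were taken from the Ensembl 115 annotation of WBcel235 and sequence from the RefSeq copy of that assembly. The 5′ end is where the annotated gene begins; in a trans-spliced gene transcription may start further upstream. Coordinates are 1-based. Peaks were ranked by signal score within each list and assigned by summit with Python 3.11.15 and numpy 2.4.6; figures were drawn with matplotlib 3.10.9. The counting was checked on simulated data. No test was run: counts stand beside the share of all protein-coding genes, so no statement of statistical significance is made.

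The genes and pathway lists were chosen with earlier results of these data known. Named were all 8 genes with every peak, the gene with the nearest 5′ end to a peak, pathway genes with a pooled or thresholded peak or, in a list with none, the gene with the strongest replicate 1 peak, and the 3 genes most like lin-54. The pathway genes with a replicate 2 peak alone, lin-15B and pcn-1, were added after their values were seen, as were genes without a replicate 1 peak.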

Additional observations from a re-analysis of the deposited data

How the results depend on the processing

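Of 41 alternative settings over 6 counts, 32 gave a count within 1.5 times that reported and 9 did not. The replicate 1 count of 7 fell to 2 with as many of the strongest peaks as replicate 2 holds, against 8.43% of all protein-coding genes. It fell to 1 with as many as the thresholded list holds. For that setting and the other windows, assignments and list lengths named below, the share of all protein-coding genes was not computed. Those counts therefore cannot be set against a background. The replicate 2 count of 1 became 2 with a window of 2000 bp, which adds lin-52, and 0 with the gene body only, with the nearest protein-coding 5′ end only, or with as many of the strongest peaks as the thresholded list holds. The pooled count of 2 became 0 with the gene body only or the nearest 5′ end only, because all 3 pooled peaks lay upstream and nearer to another gene; with 2000 bp it was 3, adding lin-9. The thresholded count was 0 under every alternative run for it, and the count of genes with overlapping replicate peaks was 1 under all those run for it. Leaving out a replicate, the genes with a peak in either list numbered 1 to 7: without replicate 1 only lin-54 had one. Depth is unknown, so a missing peak in the shorter lists was not distinguishable from too few reads. No paired analysis was possible because there was 1 group.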
